A study of Homo sapiens with 6 samples.

Results

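The genes described here encode subunits of the N-terminal acetyltransferases (NATs), the enzymes that place an acetyl group on the first amino acid of most human proteins. They were chosen by name, with NAA15 as the reason for choosing the family because it was among the largest rises of the series. The rule took every probe set whose only gene symbol was NAA10, NAA15, NAA16, NAA20, NAA25, NAA30, NAA35, NAA38, NAA40 or NAA50, which gave 22 of 49293 probe sets and 8 of the 10 genes. NAA10 and NAA40 had no single-symbol probe set in the tables used here and were not analysed. A further 2 probe sets list LSM8 beside NAA38 and were not used.

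The samples were 6 Affymetrix arrays of 786-O cells, an established human renal cell carcinoma line, grown in serum-containing medium. On 3 arrays the cells carried an shRNA that targets ERCC6L (shERCC6L), and on 3 they carried a negative control shRNA (shNC). Both hairpins came in by lentivirus, so every culture had been transduced and no group was left without virus. ERCC6L is a DNA translocase that binds the threads joining sister chromatids in anaphase. The labels do not give the number of hairpins or say whether the replicates are separate cultures, so the p-values measure the spread between these arrays, which may be technical.

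NATs act mostly at the ribosome, where they acetylate nascent chains as these leave the exit tunnel, and each complex reads the first residues of its substrate. NatA acetylates small residues that are exposed once the initiator methionine has been cut off. NatB acetylates a methionine followed by an acidic or amide residue, and NatC a methionine followed by a bulky hydrophobic one. NatE contains NAA50, which binds to NatA and acetylates many methionine-starting chains, and NatD is NAA40, which acetylates histones. The mark changes how a protein folds, is targeted or is recognised by degradation enzymes.

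The target checked out against the labels, with ERCC6L signals of 97.6, 97.5 and 97.8 on the shERCC6L arrays and 239.9, 244.3 and 261.4 on the shNC arrays. Array medians lay between 60.02 and 61.54, and correlations of log2(signal + 16) were 0.9986 to 0.999 within groups and 0.9931 to 0.9938 across them. Of 8 renal markers 7 were measured, and 2 passed as higher and 2 as lower in shERCC6L (adjusted p under 0.05). The shares over all 18132 genes, each by its brightest probe set, were 17.8% higher and 12.9% lower. PAX8 averaged 502.1 in shERCC6L and 392.3 in shNC, VIM 14885 and 14926, NNMT 1922 and 3049 and CDH2 1844 and 2214. The keratin KRT18 averaged 1748 in shERCC6L and 1591 in shNC and rose by 0.13 on the log2 scale (limma adjusted p = 0.0471). KRT8 averaged 2313 and 2125, at 0.12 (adjusted p = 0.0615), and PAX2 154.9 and 152.8, at 0.02 (0.814). PAX8 and KRT18 were those that passed as higher, and NNMT and CDH2 those that passed as lower. Of 3 fibroblast markers, COL1A1 averaged 53.3 in shERCC6L and 74.5 in shNC, a fall of 0.38 on the log2 scale (limma adjusted p = 5.5e-04). Its part in the results was not tested. DCN averaged 9.40 in shERCC6L and 11.3 in shNC, and LUM 29.1 and 25.9. Their log2 fold changes of -0.11 and 0.10 did not pass (adjusted p = 0.261 and 0.173). The leukocyte markers PTPRC, LYZ and CD3E read 7.21, 7.66 and 27.1 in shERCC6L, and 7.31, 7.63 and 27.7 in shNC. For the endothelial markers PECAM1, CDH5 and VWF the means were 49.5, 17.3 and 84.6 in shERCC6L, and 54.2, 17.0 and 83.7 in shNC. None of these leukocyte or endothelial markers passed. A probe set's signal depends on its probes, so levels are compared between arrays and never between genes.

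The starts of 3 of the genes are printed because 1 of them, NAA15, rose about 2-fold while its paralog NAA16 moved little, and because NAA50 binds to the complex that both of them form. Each window runs 5′ to 3′ on the gene's strand from 250 bases before to 50 bases after the RefSeq start (GRCh38.p14). Capitals mark the letters GCCATNTTG, which resemble a YY1 site, the E-box CACGTG and the GC box GGGCGG, each searched on both strands.
NAA15, chr4:139301255-139301554, plus strand: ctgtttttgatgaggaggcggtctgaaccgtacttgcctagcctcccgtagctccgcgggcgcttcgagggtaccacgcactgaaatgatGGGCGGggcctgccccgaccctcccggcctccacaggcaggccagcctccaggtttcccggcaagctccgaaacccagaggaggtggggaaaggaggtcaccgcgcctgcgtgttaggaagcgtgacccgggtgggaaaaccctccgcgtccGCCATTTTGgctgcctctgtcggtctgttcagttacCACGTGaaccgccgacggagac
NAA16, chr13:41311017-41311316, plus strand: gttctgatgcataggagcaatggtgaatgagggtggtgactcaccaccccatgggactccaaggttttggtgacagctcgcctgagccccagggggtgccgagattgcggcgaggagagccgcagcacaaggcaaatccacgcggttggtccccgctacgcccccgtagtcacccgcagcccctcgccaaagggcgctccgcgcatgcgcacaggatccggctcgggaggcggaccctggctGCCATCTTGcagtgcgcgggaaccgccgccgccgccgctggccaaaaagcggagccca
NAA50, chr3:113746200-113746499, minus strand: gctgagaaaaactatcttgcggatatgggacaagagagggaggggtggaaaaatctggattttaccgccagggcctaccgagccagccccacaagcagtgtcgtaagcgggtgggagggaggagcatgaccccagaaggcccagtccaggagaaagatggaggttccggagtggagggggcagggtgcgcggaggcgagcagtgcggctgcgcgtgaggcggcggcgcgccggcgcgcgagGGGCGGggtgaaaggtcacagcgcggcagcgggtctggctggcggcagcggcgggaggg

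In the NAA15 and NAA16 windows the YY1-type letters begin at the same place, -8 from the start. Of the 7 member genes with a promoter in the table, these 2 hold those letters, which 2.92% of all 35116 windows do. Only NAA15 among the 7 holds the E-box, at position 29 (7.26% of all windows), and 5 of the 7 hold a GC box (45% of all windows). Unmarked above, the NRF1-type letters GCGCATGCG are held by NAA16 and NAA40 (1.92% of all windows). The ETS core CCGGAAG is held by NAA20 and NAA35 (10.3%), and CCAAT by none of the 7 (34.6%). NAA20 has 3 windows and NAA35 has 2, so counts of genes and shares of windows are not the same measure. The motifs were chosen after the NAA15 window had been read, and a match is a description of letters, not of a factor at work. NDUFC1, which encodes a subunit of respiratory complex I, lies on the opposite strand and has annotated starts 271 and 295 bases upstream of the NAA15 start, and others 972 and 1046 bases inside NAA15.

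NAA15 is the large auxiliary subunit of NatA, which anchors the complex to the ribosome and holds the catalytic subunit NAA10 in its active shape. Its brightest probe set (11745181_a_at) read 440.4, 440.4 and 499 on the shERCC6L arrays and 203.5, 235 and 213 on the shNC arrays. Every shERCC6L array lay above every shNC array by a wide margin. The means were 460.0 ± 33.9 in shERCC6L and 217 ± 16.4 in shNC (SD, n = 3 each), a log2 fold change of 1.03 ± 0.06 (SE) on the log2(signal + 16) scale, or 2.04-fold. No test is given for NAA15, since the family was picked for this value, which ranked ninth among the rises of 18132 genes, each taken by its brightest probe set.

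The other NAA15 probe sets were not all alike. Probe set 11745183_a_at read 354.2, 354.2 and 389.97 in shERCC6L and 143.6, 148.4 and 135.7 in shNC, the highest log2 fold change of the family at 1.27. Probe set 11745182_a_at read 339, 329 and 310.4 in shERCC6L and 155, 141.5 and 152 in shNC, at a log2 fold change of 1.05, and 11743709_at had one of 0.88, at 192, 195 and 201 against 96.7, 95.3 and 106. On these 4 probe sets the groups did not overlap. The fifth, 11759891_at, read 10.9, 9.25 and 8.59 in shERCC6L and 9.46, 9.44 and 9.09 in shNC, where the groups did overlap. With no detection calls in the table, whether that probe set saw any transcript is unknown. With all 5 averaged, the log2 fold change was 0.85.

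**Figure D1:**
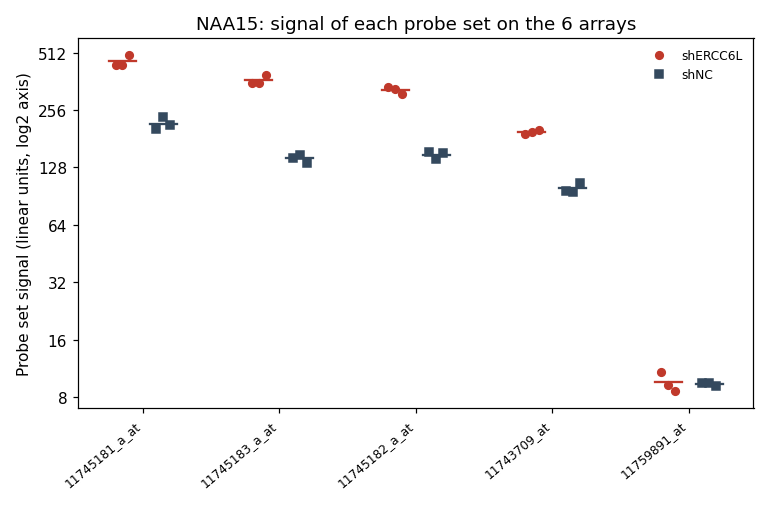
Signal of the 5 NAA15 probe sets (linear units on a log2 axis) on the 3 shERCC6L arrays (red circles) and the 3 shNC arrays (dark squares), with a bar at each group mean. On 4 probe sets the shERCC6L arrays lie above all shNC arrays, while the fifth sits near a signal of 9 in both groups.

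The measured genes on either side of NAA15 on chromosome 4 did not pass the threshold. NDUFC1 read 2470.5, 2552 and 2534 in shERCC6L and 2542, 2507 and 2525 in shNC, and the groups overlapped, with a log2 fold change of -0.003 ± 0.03 (SE; limma adjusted p = 0.961). RAB33B, a Golgi GTPase, had 2 probe sets at 0.02 and 0.03 (limma adjusted p = 0.858 and 0.632).

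NAA16, which can take the place of NAA15 in a NatA complex, moved far less. Its brightest probe set read 42, 45.4 and 42.5 in shERCC6L and 40.5, 40.8 and 36.2 in shNC. These groups were separate but close, and the log2 fold change of 0.10 ± 0.04 (SE) did not pass (limma adjusted p = 0.12). A second probe set, 11756272_a_at, read 43.5, 41.9 and 46.2 in shERCC6L and 35.4, 38.4 and 37.1 in shNC and rose by 0.18 ± 0.04 (adjusted p = 0.0096), while the third stayed near a signal of 9 in both groups (log2 fold change 0.01, adjusted p = 0.87). Averaged over its 3 probe sets NAA16 rose by 0.10 (adjusted p = 0.0229 in a fit across 18132 genes). The 95% interval of the brightest probe set's log2 fold change ran from 0.004 to 0.21.

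Counting the 17 probe sets of the 7 members other than NAA15, 9 passed as higher in shERCC6L and 0 as lower at an adjusted p under 0.05, and 8 did not pass. Over all 49293 probe sets 16.8% passed as higher and 11.9% as lower, and the family was chosen on this same contrast, so nothing is read from the count. On 11 of the 17 the shERCC6L arrays all lay above the shNC arrays, which held for 22.3% of all probe sets. Their median log2 fold change was 0.13, against -0.01 over all probe sets. In bulk RNA a change in RNA per cell and a change in the mix of cell states cannot be told apart.

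**Figure D2:**
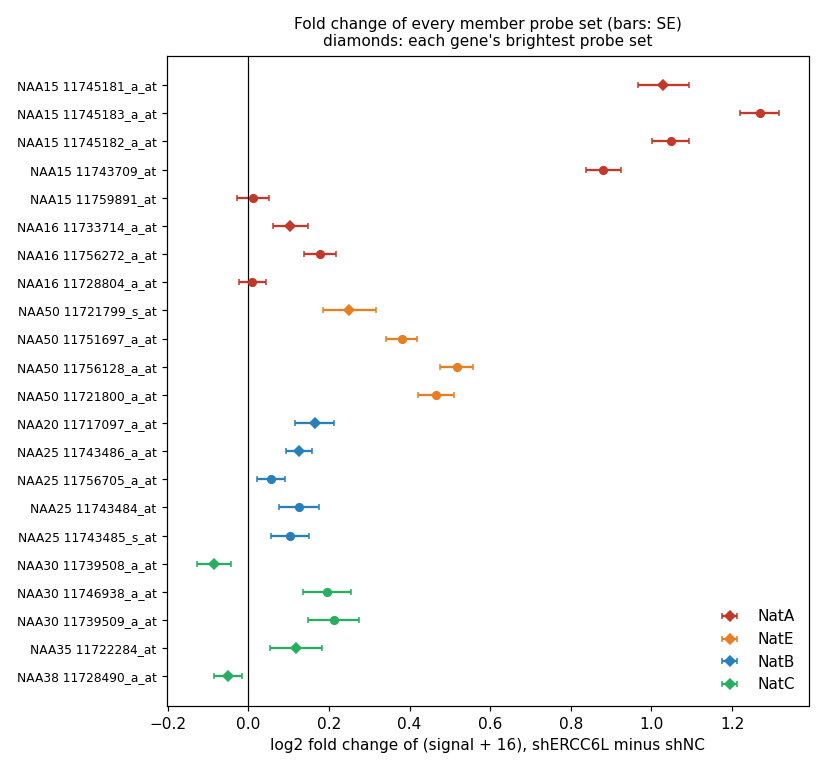
Log2 fold change of (signal + 16), shERCC6L minus shNC, for all 22 member probe sets grouped by complex, with SE bars and diamonds for each gene's brightest probe set. NAA15 reaches 1.27, NAA50 lies between 0.25 and 0.52, and the NatB and NatC subunits lie between -0.09 and 0.21.

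NAA50, the catalytic subunit of NatE that sits on NatA beside NAA15, rose on all 4 of its probe sets. Probe set 11756128_a_at read 887, 917 and 882 in shERCC6L and 631, 643 and 590.0 in shNC, with a log2 fold change of 0.52 ± 0.04 (SE; limma adjusted p = 3.5e-05). Probe set 11721800_a_at read 471, 472 and 517 against 348, 357 and 338, and rose by 0.47 ± 0.04 (adjusted p = 9.9e-05). On both, every shERCC6L array was above every shNC array.

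Probe set 11751697_a_at of NAA50 rose by 0.38 ± 0.04 (SE; limma adjusted p = 1.2e-04), with means of 897 ± 23.2 in shERCC6L and 686 ± 21.4 in shNC (SD, n = 3 each). The brightest, 11721799_s_at, whose suffix in Affymetrix naming marks probes shared between transcripts, rose least, by 0.25 ± 0.07 (adjusted p = 0.021). It read 856, 824 and 959 in shERCC6L and 691.5, 793 and 724 in shNC, and the nearest arrays of the groups were close. Its call ended without shERCC6L replicate 3 (adjusted p = 0.0538), shNC replicate 1 (0.0724) or shNC replicate 3 (0.0665), whereas the other 3 probe sets passed under all 14 alternatives. Averaged over its probe sets NAA50 rose by 0.40 ± 0.03 (adjusted p = 2.1e-05 across genes).

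**Figure D3:**
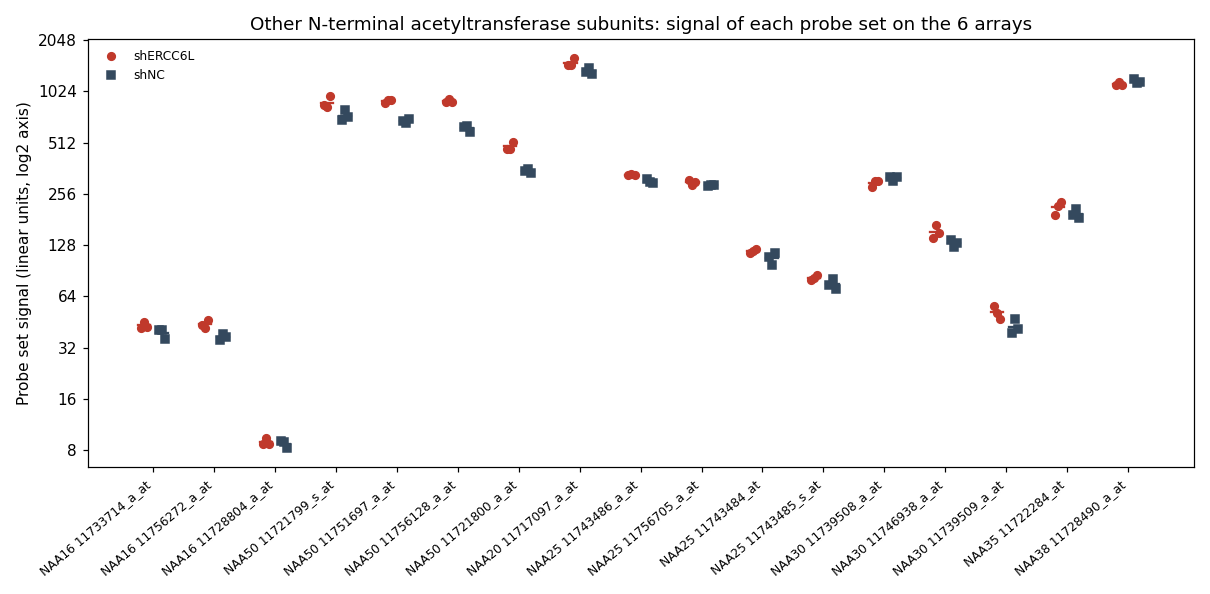
Signal of the 17 probe sets of the other 7 measured members (linear units on a log2 axis) on the shERCC6L arrays (red circles) and the shNC arrays (dark squares), with a bar at each group mean. On all 4 NAA50 probe sets the shERCC6L arrays lie above the shNC arrays, while for NAA35 and NAA38 the groups overlap.

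The NatB subunits shifted slightly. NAA20, the catalytic subunit, had 1 probe set, at 1458, 1459 and 1599 in shERCC6L and 1336, 1397 and 1287 in shNC, and rose by 0.17 ± 0.05 (SE; limma adjusted p = 0.0327). The groups did not overlap, but the call held under only 9 of 14 alternatives, ending without shERCC6L replicate 3 and without shNC replicate 1 or 3, and with a replicate block (adjusted p = 0.0629) or a pseudocount of 1 (0.0659).

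NAA25, the auxiliary subunit that joins NAA20 to the ribosome, had 4 probe sets, of which 1 passed as higher. That one, its brightest, read 331, 333 and 330.0 in shERCC6L and 311, 299 and 296 in shNC, a log2 fold change of 0.13 ± 0.03 (SE; limma adjusted p = 0.021), and it too held under 9 of 14 alternatives. It was lost without shERCC6L replicate 2, without shNC replicate 2 or 3, with quantile normalization (adjusted p = 0.0937) and with a pseudocount of 1 (0.0621). The remaining 3 had log2 fold changes of 0.06, 0.13 and 0.10 and did not pass (adjusted p = 0.307, 0.097 and 0.147), though the second passed without shNC replicate 3 (0.0402) and the third without shNC replicate 2 (0.0394). Averaged over its 4 probe sets NAA25 rose by 0.10 ± 0.02 (SE; limma adjusted p = 0.0098 across genes).

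The NatC subunits did not move together. For its catalytic subunit NAA30 the brightest probe set read 282, 303 and 305 in shERCC6L and 322, 302.5 and 322 in shNC, with overlapping groups and a log2 fold change of -0.09 ± 0.04 (SE; limma adjusted p = 0.193). The other 2 NAA30 probe sets rose, by 0.20 ± 0.06 (adjusted p = 0.0405) and 0.21 ± 0.06 (0.0352), so that the probe sets of 1 gene disagreed in sign. The first of these was lost under 8 of 14 alternatives, among them without shERCC6L replicate 2 or 3 and without shNC replicate 2 or 3. The second was lost under 5, among them without shERCC6L replicate 1 or 2 and without shNC replicate 1 or 3. With the 3 averaged NAA30 rose by 0.11 (adjusted p = 0.0179 across genes), the opposite sign to its brightest probe set.

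The auxiliary NatC subunits had 1 probe set each. NAA35, the large scaffold, read 193, 216 and 230.5 in shERCC6L and 192, 208 and 185 in shNC, overlapping, with a log2 fold change of 0.12 ± 0.06 (SE; limma adjusted p = 0.229, and 0.046 without shERCC6L replicate 1). NAA38, a small Sm-like subunit, read 1121, 1162 and 1118 against 1205, 1153 and 1165, also overlapping, with a log2 fold change of -0.05 ± 0.03 (adjusted p = 0.349). Its 95% interval ran from -0.13 to 0.03.

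Among 9065 other genes at or above the median level, those whose 6 array values lay closest to NAA15 were ELOVL6, a fatty acid elongase, NT5E, the ectonucleotidase CD73, IER3IP1, a small protein of the endoplasmic reticulum, TMEM158 and PSPC1, a paraspeckle protein. Likeness was the root mean square difference between brightest probe sets on the log2 scale over the 6 arrays, after centring each gene, and came to 0.045, 0.046, 0.053, 0.055 and 0.078. Their log2 fold changes were 1.02, 0.98, 0.93, 1.05 and 1.09. The measure is dominated by the difference between the groups, so it mainly picks genes with a rise of the same size.

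Genes that act before, beside and after N-terminal acetylation were taken from 6 lists. Of 39 listed genes 32 had a single-symbol probe set, and on the brightest 14 passed as higher and 4 as lower in shERCC6L, with a median log2 fold change of 0.08. Over all 18132 genes 17.8% passed as higher and 12.9% as lower, and the median was -0.01. The lists were chosen with earlier results of these data known, so nothing is read from these counts or those of each list.

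The nascent chain factors, which meet the same chains at the ribosome exit, were higher for 4 of 6 genes and lower for 0. Of all genes 17.8% were higher and 12.9% lower. HSPA14 and DNAJC2, the Hsp70 and J-protein of the ribosome-associated chaperone complex, rose by 0.51 ± 0.04 and 0.39 ± 0.04 (log2, SE; limma adjusted p = 2.8e-05 and 1.4e-04). HSPA14 read 865, 858 and 919 in shERCC6L and 602, 606 and 629 in shNC, and all 4 of its probe sets passed. SRP54, which binds signal sequences, rose by 0.24 and NEMF, a ribosome quality control factor, by 0.22 (adjusted p = 0.0177 and 0.0299). Both SRP54 probe sets passed but only 2 of 5 for NEMF, whose averaged log2 fold change was 0.11. NACA and BTF3, which together form the nascent polypeptide-associated complex, had log2 fold changes of 0.04 and 0.03 and did not pass (adjusted p = 0.571 and 0.783), though 1 of the 3 BTF3 probe sets fell, by 0.29. The call of SRP54 ended without shERCC6L replicate 2 or shNC replicate 1 or 3 (adjusted p up to 0.063), and that of NEMF without shERCC6L replicate 2 or 3 or shNC replicate 1 or 2 (up to 0.106).

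Of 7 genes that supply acetyl-CoA, the acetyl donor, or make coenzyme A, 5 rose and 0 fell. Among all genes 17.8% passed as higher and 12.9% as lower. PANK3, a pantothenate kinase at the head of coenzyme A synthesis, read 196, 175 and 210.0 in shERCC6L and 128, 132 and 120 in shNC and rose by 0.56 ± 0.06 (log2, SE; limma adjusted p = 2.4e-04), as did all 3 of its probe sets. SLC25A1, the mitochondrial citrate carrier, rose by 0.27, COASY by 0.20, PANK2 by 0.18 and ACLY, which splits citrate to acetyl-CoA, by 0.13 (adjusted p = 0.0029, 0.0044, 0.0052 and 0.0152). Of their probe sets 3 of 4 passed for SLC25A1, 2 of 3 for COASY, both for ACLY and 2 of 4 for PANK2, whose averaged log2 fold change was 0.12. ACSS2 and PANK1, at 0.04 and -0.03, did not pass. ACLY was lost without shNC replicate 3 (adjusted p = 0.056) and with a pseudocount of 1 (0.0573).

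Other enzymes of the N terminus divided. NMT1, which attaches myristate to an N-terminal glycine, rose by 0.21 ± 0.03 (log2, SE; limma adjusted p = 0.0014) on its brightest probe set, and its 3 others passed too. The N-terminal methyltransferase gene NTMT1 rose by 0.16 (adjusted p = 0.0229), and METAP1D, a mitochondrial methionine aminopeptidase, fell by 0.15 (0.0497). NTMT1 was lost when any of 4 arrays was left out and METAP1D when any of 5 was, with adjusted p up to 0.0737 and 0.147, and NTMT1 also with its probe sets averaged (0.0765). METAP1 and METAP2, the cytosolic enzymes that remove the initiator methionine ahead of NatA, had log2 fold changes of 0.01 and 0.06 and did not pass on their brightest probe sets, nor did NMT2 at -0.06, while 1 other probe set each of METAP1 and METAP2 rose, as did METAP2 with its probe sets averaged (0.15, adjusted p = 0.0206). NAA60, a Golgi-associated acetyltransferase of transmembrane proteins, had a brightest probe set at 0.07 that did not pass (adjusted p = 0.586) and another that did, at 0.12. HYPK, NAA11 and NAA80 had no single-symbol probe set here.

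Among 9 genes of N-degron recognition, which read the N terminus as a degradation signal, 2 rose and 2 fell. The shares over all genes were 17.8% higher and 12.9% lower. ZYG11B, a substrate receptor for N-terminal glycine, read 224, 229 and 237 in shERCC6L and 386, 385 and 401 in shNC and fell by 0.73 ± 0.04 (log2, SE; limma adjusted p = 2.7e-06). All 4 ZYG11B probe sets fell, and the groups were far apart. Its relative ZER1, at 0.02, did not pass (adjusted p = 0.78). CNOT4, a ubiquitin ligase whose yeast counterpart has been tied to acetylated N termini, fell by 0.26 on its brightest probe set (adjusted p = 0.0024), though 5 of its 7 probe sets did not pass, nor did their average (0.516). UBR1, a ligase for classical N-degrons, rose by 0.21 and ATE1, the arginyltransferase, by 0.17 (adjusted p = 0.0085 and 0.0396), while MARCHF6, UBR2, UBR4 and NTAN1 did not pass on their brightest probe sets. Only 1 of 3 UBR1 probe sets passed, and 1 of the 4 MARCHF6 probe sets fell, by 0.24. ATE1 was lost without shERCC6L replicate 1 or 2 and without shNC replicate 1 or 3 (adjusted p up to 0.128), and UBR2 passed without shNC replicate 1 (0.0371).

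**Figure D4:**
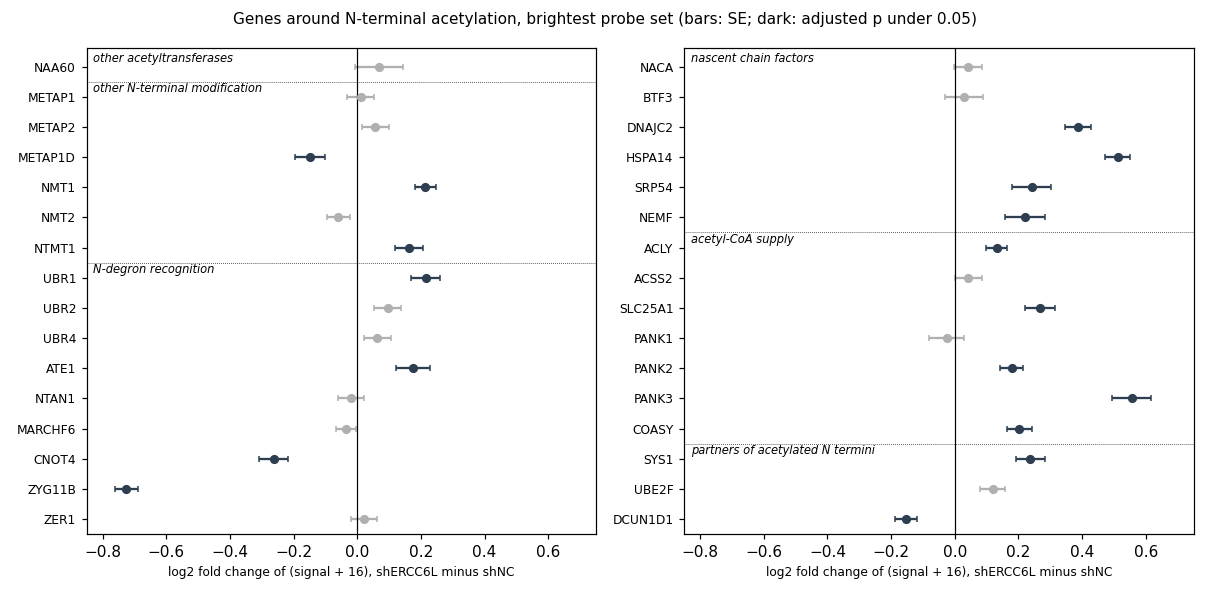
Log2 fold change of (signal + 16), shERCC6L minus shNC, with SE bars, for the brightest probe set of 32 genes in 6 lists around N-terminal acetylation. Dark points passed an adjusted p of 0.05; HSPA14 (0.51) and PANK3 (0.56) lie farthest to the right and ZYG11B (-0.73) farthest to the left.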

How the data were processed

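Biotin-labelled cRNA from total RNA was hybridised to single-channel Affymetrix arrays. The authors deposited 1 linear intensity per probe set and array, made with Affymetrix Expression Console per the submitters' processing notes. How it corrected background, scaled the arrays and combined probes was not stated in those notes. The table has no detection calls, and precision is limited by having only 3 arrays a group. Of 49395 probe sets 102 controls were left out. Symbols came from GEO's platform annotation, in which 44988 probe sets have 1 symbol, 1832 several and 2473 none, and promoters came from RefSeq (GRCh38.p14).

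Intensities were transformed to log2(signal + 16), which understates the change of dim genes, and shERCC6L was compared with shNC with limma 3.58.1 under R 4.3.3, a moderated 2-sided test by eBayes whose prior added 4.47 degrees of freedom to the 4 residual ones, with no block or filter. P-values were adjusted by Benjamini-Hochberg over 49293 probe sets, with a threshold of 0.05; "across genes" marks fits on 18132 genes. The code was tested on simulated data. A gene's brightest probe set has the highest mean over all 6 arrays. Named genes are all members and their probe sets, genes of the 6 lists with those past the threshold first, the neighbours of NAA15, the 5 genes most like it and ERCC6L. Members and lists were chosen with earlier results of these data known. The labels share replicate numbers between groups, but the deviations of same-numbered arrays correlated at 0.22, -0.15 and -0.03, so they were not treated as pairs.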

Additional observations from a re-analysis of the deposited data

How the results depend on the processing

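The NAA15 rise on its brightest probe set kept its direction under all 15 alternatives, at log2 fold changes of 0.85 to 1.08. It was 0.90 with a pseudocount of 64 and 0.85 with its probe sets averaged, and 0.97 to 1.08 with 1 array left out. The 9 calls among the other members' 17 probe sets numbered 5 to 9 with 1 array left out, and without shNC replicate 3 there were 5. With a replicate block there were 7, with quantile normalization 7, with a pseudocount of 1 there were 6 and with one of 64 there were 7; in none did a member pass as lower. The 18 calls among the 32 related genes numbered 13 to 16 with 1 array left out, and 17 with a replicate block. Apart from NAA30, signs turned in log2 fold changes near 0 that had not passed. With quantile normalization METAP1 was at -0.012 and ZER1 at -0.0013, and METAP1 was at -0.0081 with array weights. With probe sets averaged BTF3 was at -0.067 and NMT2 at 0.030. NAA30 turned from -0.085 on its brightest probe set, which had not passed, to 0.107 with its probe sets averaged, which passed (limma adjusted p = 0.0179 across genes). With 1 array left out, the third NAA16 probe set ran from -0.0047 to 0.020, BTF3 from -0.012 to 0.087, METAP1 from -0.030 to 0.034, NTAN1 from -0.045 to 0.0077, ZER1 from -0.010 to 0.057 and PANK1 from -0.076 to 0.0063. The dim NAA15 probe set 11759891_at, given no test, turned from 0.012 to -0.024 without shERCC6L replicate 1. The averaged and gene-only values of the members other than NAA15 were added after seeing the data. The cause of these changes was not tested. With no detection calls, the dimmest probe sets have only the level they show.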

Other observations

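One further list held partners of acetylated N termini, and 3 of its 6 genes had a single-symbol probe set. SYS1, a Golgi membrane protein that recruits the GTPase ARFRP1 after its acetylation by NatC, read 135, 121 and 119.7 in shERCC6L and 106, 103 and 102 in shNC, and rose by 0.24 ± 0.05 (log2, SE; limma adjusted p = 0.0041). Both SYS1 probe sets passed. DCUN1D1, which binds the acetylated N terminus of NEDD8-conjugating enzymes, fell by 0.15 ± 0.03 (adjusted p = 0.0105) on its brightest probe set, at 256, 254 and 259.6 in shERCC6L and 292, 277 and 292 in shNC. All 4 DCUN1D1 probe sets fell, the most by 0.62, and averaged they fell by 0.33. UBE2F, such a conjugating enzyme, had a log2 fold change of 0.12 on its brightest probe set and did not pass (adjusted p = 0.0516), though 2 of its 7 probe sets did, as did their average across genes (0.0079).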
